A study of Mus musculus with 2 samples.

Results

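The cells described here were the *Gzmb*- and *Il6*-rich end of the mast cell-like cells that grew out of cultured mouse embryonic tissue. Among cells with at least 40 *Cpa3* and fewer than 20 *Mcpt1* UMIs per 10000, they were the 6% with the highest sum of *Il6* and *Gzmb* UMIs per 10000, with both libraries ranked together. A UMI (unique molecular identifier) stands for 1 captured transcript. The rule took 240 of 3992 ranked cells, of 5158 cells that passed the limits on genes and mitochondrial UMIs and of 6541 barcodes in all. Em-Ex gave 150 of them, 7.22% of its 2077 ranked cells (95% interval 6.15 to 8.42%), and YS-Ex gave 90, 4.70% of 1915 (3.80 to 5.75%). Since measured values chose these cells, their shares and their *Il6* and *Gzmb* levels are a description.

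Em-Ex stands for explants of intraembryonic tissues and YS-Ex for explants of yolk sacs, both from C57/BL6 mice at E8.5 with 5 to 7 somite pairs. Both kinds were cultured at an air-liquid interface for 9 to 10 days with SCF, IL-3 and FLT3 ligand at 100 ng/ml each and 20% FCS, and both were sorted as CD31+CD45+c-Kit+CD41- cells, so that no group lacked the cytokines or the c-Kit gate. Each library pooled material from several concepti, and 8600 cells were loaded for each. With 1 library per tissue no test between conditions is possible, and the main comparisons below set the chosen cells against the other ranked cells of the same library (1927 in Em-Ex, 1825 in YS-Ex). The 95% intervals cover counting error only, and they are too narrow where a few cells hold most UMIs of a gene. Of the chosen cells, 4 had a barcode that also occurred in the other library, as did 28 of the other cells.

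Mast cells are granulated cells of the myeloid lineage that depend on SCF and its receptor c-Kit, carry the high-affinity IgE receptor and store proteases such as carboxypeptidase A3 (*Cpa3*), chymases and tryptases. Granzyme B (*Gzmb*) is a serine protease best known from the granules of cytotoxic T cells and NK cells, and it is also made by some mast cells. Interleukin-6 (*Il6*) is a cytokine that mast cells transcribe anew after stimulation. A cell rich in the first need not therefore be rich in the second, and the chosen cells were examined for each transcript in turn.

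The regions just before the start sites of the 2 ranking genes, and of *Fcer1a*, the IgE-binding receptor chain described below, are shown because the levels of these 3 genes are followed through both rankings. They are 250 bases each from RefSeq on GRCm38.p6, read 5′ to 3′ on the strand of the gene, at chr14:56262335-56262584 for *Gzmb* (minus strand), chr5:30012864-30013113 for *Il6* (plus strand) and chr1:173227230-173227479 for *Fcer1a* (minus strand). Capitals mark matches, on either strand, to the letters TGANTCA (AP-1), GGGA followed by any base and TTTCC (NF-kB), AGATAA (the GATA family) and TGACGTCA (CRE).
Gzmb: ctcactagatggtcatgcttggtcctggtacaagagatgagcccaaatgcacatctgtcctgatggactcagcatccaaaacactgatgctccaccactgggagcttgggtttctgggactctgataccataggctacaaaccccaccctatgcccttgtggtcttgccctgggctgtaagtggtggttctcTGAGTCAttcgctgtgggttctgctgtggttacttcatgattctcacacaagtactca
Il6: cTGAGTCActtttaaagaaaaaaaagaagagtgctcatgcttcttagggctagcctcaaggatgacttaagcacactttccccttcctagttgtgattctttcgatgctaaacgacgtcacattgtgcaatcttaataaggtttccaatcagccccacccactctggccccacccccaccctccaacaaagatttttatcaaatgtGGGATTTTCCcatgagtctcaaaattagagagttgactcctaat
Fcer1a: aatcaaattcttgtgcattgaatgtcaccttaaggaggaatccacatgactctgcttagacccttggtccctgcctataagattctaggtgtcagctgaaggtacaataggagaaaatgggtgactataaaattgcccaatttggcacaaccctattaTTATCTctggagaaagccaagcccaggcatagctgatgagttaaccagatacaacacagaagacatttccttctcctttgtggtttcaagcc
The *Gzmb* window held an AP-1 match that began at base -58 from the start site. The *Il6* window held an AP-1 match at -249 and an NF-kB match at -44. The *Fcer1a* window held a GATA match at -92. Of all 32851 mouse windows of this length, 6.75% held the AP-1 letters, 0.356% the NF-kB letters, 9.99% the GATA letters and 1.55% the CRE letters. These matches describe the sequence and do not show binding.

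Most of the chosen cells were chosen by *Gzmb*. *Gzmb* alone put 192 of the 240 (80%) over the threshold and *Il6* alone 24 (10%), while 23 (9.58%) passed only by the sum and 1 (0.417%) by each alone. *Gzmb* UMIs were found in 220 of them and *Il6* UMIs in 119. In Em-Ex the chosen cells ran from 0 through a median of 14.8 to 83.4 *Gzmb* UMIs per 10000, and in YS-Ex from 0 through 11.7 to 118. Their *Il6* ran from 0 through 0 to 24.3 per 10000 in Em-Ex and from 0 through 0.974 to 25.9 in YS-Ex. The typical chosen cell was thus rich in *Gzmb* and held little or no *Il6*. The name "mast cells with Il6 and Gzmb" did not describe it, and all 240 cells are called *Gzmb*-rich cells from here on. This is a short name for the set and does not hold for each cell, since 20 of the 240 had 0 *Gzmb* UMIs. The 24 that passed by *Il6* alone are also counted under it.

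The threshold fell within a continuum. The last 3 cells inside it had 9.17, 9.16 and 9.08 UMIs of *Il6* plus *Gzmb* per 10000, and the first 3 outside it had 9.06, 8.99 and 8.97. The median was 14.6 in the *Gzmb*-rich cells and 0 in the other cells, and 50.9% of all ranked cells had at least 1 UMI of either gene. Pooled, *Gzmb* stood at 1826 UMIs per 1000000 (CPM) in the Em-Ex *Gzmb*-rich cells against 62.2 in the other Em-Ex cells, and at 1451 against 44.1 in YS-Ex. *Il6* stood at 157 against 61.0 CPM in Em-Ex and at 235 against 89.0 CPM in YS-Ex. Among 538 Em-Ex cells nearly without *Cpa3* (under 5 UMIs per 10000), which should lack both, *Gzmb* was at 2.25 CPM and *Il6* at 2.82 CPM. In these cells 4.46% had a *Gzmb* UMI at a median depth of 19888.5 UMIs, against 23.4% of the other ranked Em-Ex cells at 11305, so that the *Gzmb* of cells below the threshold was not at the background level. Thinned to 2000 UMIs per cell, the shares were 0.372% and 8.15%.

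**Figure D1:**
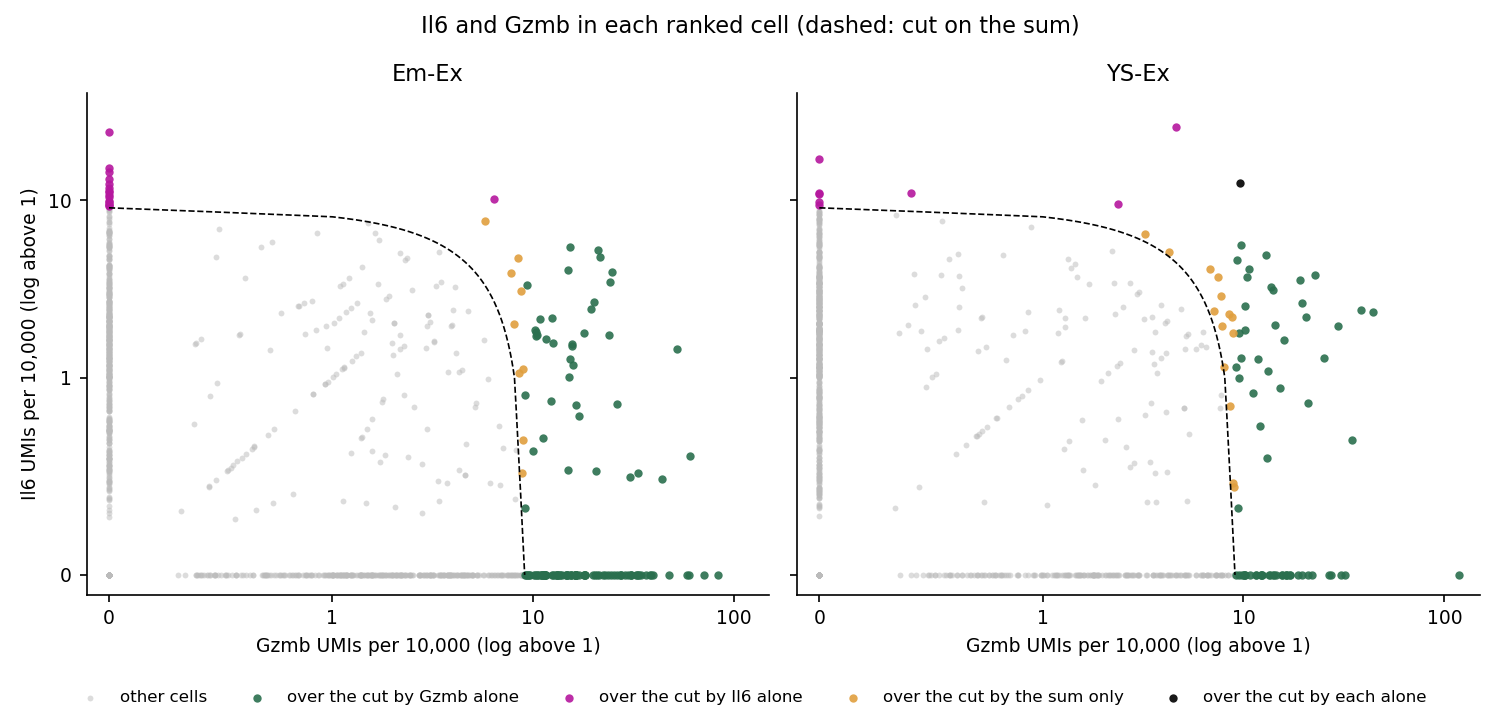
Each point is 1 ranked cell of Em-Ex (left) or YS-Ex (right), with its Gzmb UMIs per 10000 on the x axis and its Il6 UMIs per 10000 on the y axis (both linear up to 1 and logarithmic above), and the dashed line is the threshold (cut) on the sum. Of the 240 cells over the threshold, 192 passed by Gzmb alone, many of them at 0 Il6, and 24 by Il6 alone.

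High *Il6* and high *Gzmb* did not go together. Ranked by *Il6* alone and by *Gzmb* alone, the top 6% held 240 cells each and shared 15, which is 6.25% of each set, while each set is 6.01% of all ranked cells. Only 44 of the 240 cells at the top for *Il6* were among the *Gzmb*-rich cells, against 210 of the 240 at the top for *Gzmb*. In Em-Ex, *Il6* stood at 75.2 CPM (71.2 to 79.3) in cells without *Gzmb*, at 70.0 (57.5 to 84.3) in cells between the threshold and 30 *Gzmb* UMIs per 10000, and at 15.9 (5.84 to 34.6) in the 22 cells with more. In YS-Ex it stood at 95.9 CPM (91.6 to 100), 115 (94.8 to 138) and, in 6 cells, 101 (46.3 to 192). In neither library was *Il6* higher in the later classes beyond the counting intervals.

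The *Gzmb*-rich cells expressed the mast cell genes. All 18 genes of the mast identity list were measured (at least 10 CPM over the ranked cells of a library) in both libraries, and summed to 48031 CPM in the *Gzmb*-rich cells against 53579 in the other cells of Em-Ex and to 47695 against 56090 in YS-Ex. *Cpa3* itself, which the rule used, was at 12067 against 13165 CPM in Em-Ex, and at 17111 against 17526 CPM in YS-Ex. *Kit*, the SCF receptor, was at 298 against 345 CPM in Em-Ex and 886 against 997 CPM in YS-Ex. *Gata2*, a transcription factor that mast cells need, was at 514 against 556 CPM and 655 against 732 CPM. None of the 18 was at least 1.5-fold higher in either library, while 2 were at least 1.5-fold lower in Em-Ex (2.48% of 6251 measured genes were) and 3 in YS-Ex (3.53% of 6713). Most of the list lay below the other cells by less than that. Only 1 of the 18 had a log2 ratio above 0 in Em-Ex and 2 in YS-Ex, where 61.5% and 57.7% of all measured genes did.

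Proteases of the connective tissue type were among those below the other cells. Tryptase beta 2 (*Tpsb2*) stood at 5340 against 7475 CPM in Em-Ex (ratio 0.71, 0.70 to 0.73) and at 4959 against 8580 CPM in YS-Ex (ratio 0.58, 0.56 to 0.59). The chymase *Mcpt4* stood at 753 against 974 CPM in Em-Ex (ratio 0.77) and at 350 against 849 CPM in YS-Ex (ratio 0.41, 0.38 to 0.45), where 1 cell held 23.4% of its UMIs in the *Gzmb*-rich cells. *Mcpt2*, a mucosal chymase, stood at 228 against 321 CPM in Em-Ex and at 19.4 against 186 CPM in YS-Ex. Cells rich in *Mcpt1*, the mucosal partner of *Mcpt2*, had been left out by the rule. *Alox5ap*, which feeds leukotriene synthesis, was the 1 gene of 7 measured lipid mediator genes at least 1.5-fold lower in both libraries, at 517 against 781 CPM and 285 against 518 CPM, where 0.604% of the 5963 genes measured in both were. In single libraries 1 of the 7 was lower in Em-Ex (2.48% of all genes were) and 2 in YS-Ex (3.53%).

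Few genes of cytotoxic lymphocytes could be read beside *Gzmb*, since every gene with counts in a library had UMIs in at least 30 of its barcodes, and a gene missing from the table says nothing of these cells in particular. Of 27 genes of the T cell and NK cell list, 7 were in the table, and the T cell receptor constant region *Trac*, *Cd3d*, *Cd3e*, *Cd247*, *Cd2* and *Cd8a* were not among them, while *Lck* had 0 UMIs in the *Gzmb*-rich cells of both libraries. The list summed to 312 CPM in the *Gzmb*-rich cells against 380 in the other cells of Em-Ex and to 229 against 219 in YS-Ex, most of it *Lat*, an adaptor that mast cells use too, at 265 against 319 CPM and 153 against 166 CPM. Of its 3 measured genes, 0 were higher and 1 lower in Em-Ex, with a median log2 ratio of -0.27. In YS-Ex 1 of 3 was higher (*Cd3g*) and 0 lower, with a median of -0.11. The pore-forming perforin (*Prf1*) was not in the table, and neither were the granzymes *Gzmc* to *Gzmm* of the list. *Gzma* had 0 UMIs in Em-Ex and stood at 6.48 CPM in the *Gzmb*-rich cells against 10.6 CPM in the other cells of YS-Ex. Of the cytotoxic granule list, 5 genes were measured in Em-Ex, with 1 higher (*Gzmb*, which the rule used) and 0 lower, and 6 in YS-Ex, with 2 higher (*Gzmb* and *Nkg7*) and 1 lower (*Gzma*). For comparison, 2.69% of all measured genes were higher and 2.48% lower in Em-Ex, and 3.04% and 3.53% in YS-Ex. The granule proteoglycan core *Srgn* was at 4270 against 4670 CPM and 3856 against 3903 CPM, and the lysosomal membrane protein *Lamp1* at 209.8 against 234 CPM and 191 against 182 CPM. *Ctsc*, the protease that activates granzymes and mast cell chymases, stood at 352 against 276 CPM (ratio 1.27, 1.18 to 1.37) and 206 against 177 CPM (ratio 1.17, 1.03 to 1.32).

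Of the other 3 genes given as markers of these cells, none passed 1.5-fold in Em-Ex, and *Cd3g* and *Nkg7* did in YS-Ex. *Cd3g*, a chain of the T cell receptor complex, stood at 41.7 against 43.4 CPM in Em-Ex (ratio 0.96, 0.77 to 1.19) and at 64.0 against 34.7 CPM in YS-Ex (ratio 1.85, 1.47 to 2.30). *Nkg7*, a granule membrane protein of cytotoxic cells, stood at 43.0 against 33.6 CPM in Em-Ex (ratio 1.28, 1.03 to 1.58) and at 96.4 against 52.4 CPM in YS-Ex (ratio 1.84, 1.53 to 2.20). *Tfrc*, the transferrin receptor, stood at 23.1 against 17.5 CPM (ratio 1.32, 0.97 to 1.77) and 37.4 against 28.7 CPM (ratio 1.30, 0.96 to 1.73), intervals that include equal levels. In shares of cells, 23.3% of the Em-Ex *Gzmb*-rich cells had a *Cd3g* UMI against 18.3% of the others, and in YS-Ex 28.9% against 16.6%. At 8000 to 16000 UMIs the log2 ratios were -0.13 and 1.63 for *Cd3g* and 1.12 and 1.5 for *Nkg7*, past the fold for *Nkg7* in both libraries, while thinned to 2000 UMIs *Nkg7* was at 0.98 and 0.13. Cells nearly without *Cpa3* stood at 52.4 CPM of *Nkg7* and 31.9 CPM of *Tfrc* in Em-Ex, so that these were no marks of the *Gzmb*-rich cells alone.

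Few genes differed in both libraries. A gene was called where the log2 ratio of pooled levels, with 0.5 UMIs added, passed 1.5-fold. In Em-Ex, 168 of 6251 measured genes (2.69%) were higher and 155 (2.48%) lower, and in YS-Ex 204 of 6713 (3.04%) were higher and 237 (3.53%) lower. Of the 5963 genes measured in both, 27 (0.453%) were higher in both, *Il6* and *Gzmb* included, and 36 (0.604%) lower in both. The median log2 ratio of all measured genes was 0.07 in Em-Ex and 0.05 in YS-Ex, and with log2 ratios taken relative to it 98 genes of Em-Ex were higher and 215 lower. The *Gzmb*-rich cells were also deeper, with medians of 14410.5 and 15303 UMIs against 11305 and 11738 in the other cells of Em-Ex and YS-Ex. Values at like depth follow for the genes whose call they end or turn.

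**Figure D2:**
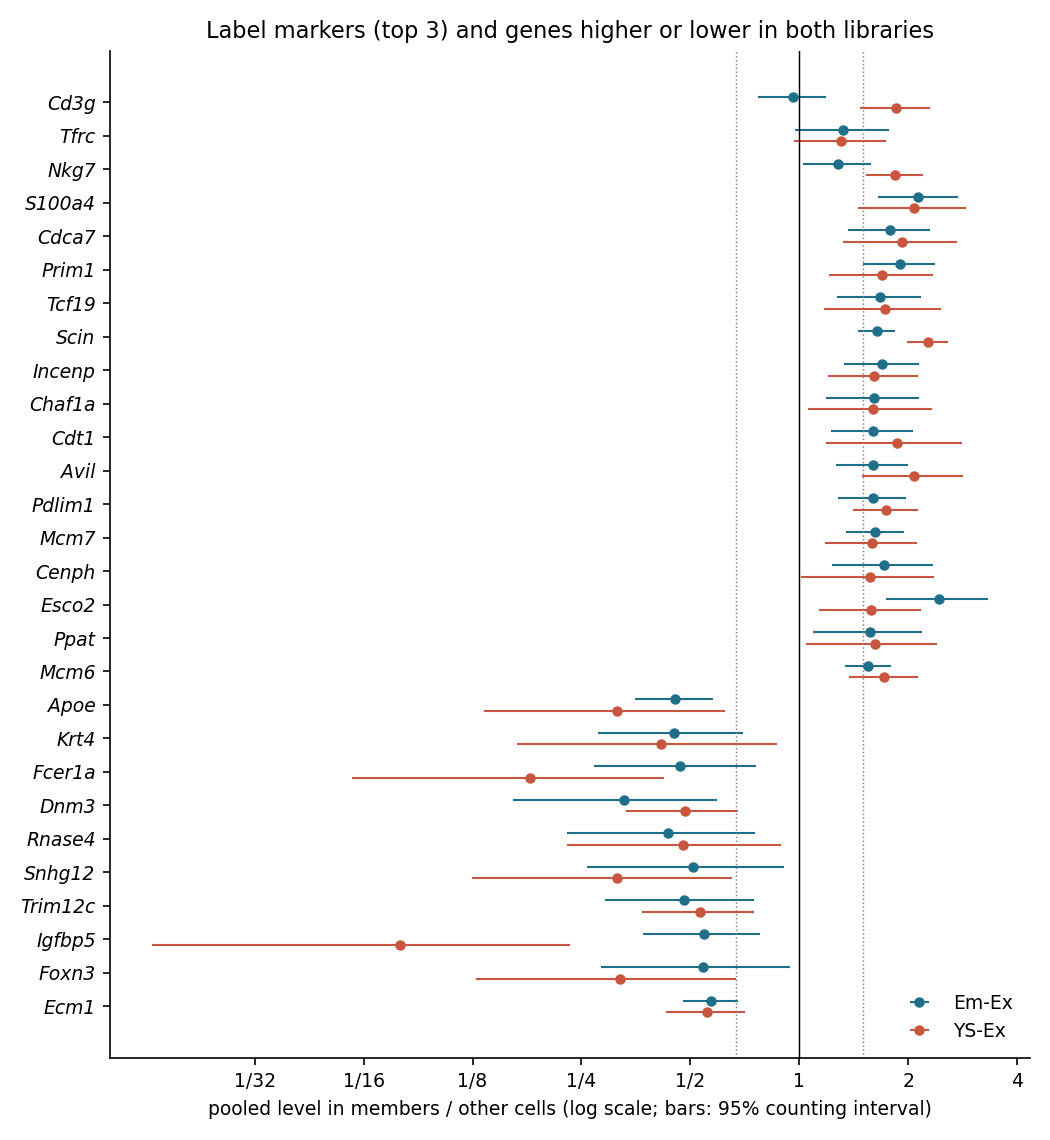
The ratio of the pooled level in the Gzmb-rich cells (members) to that in the other cells, on a log scale, for the 3 further markers, the 15 genes highest and the 10 lowest in both libraries, with 95% counting intervals and dotted lines at 1.5-fold. Cd3g lies at 0.96 for Em-Ex but 1.85 for YS-Ex, while the 15 higher genes lie between 1.55 and 2.43 in both.

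*S100a4*, a small calcium-binding protein of motile cells, led the higher genes. It stood at 33.7 CPM in the *Gzmb*-rich cells against 15.8 in the other cells of Em-Ex (ratio 2.13, 1.65 to 2.74) and at 28.8 against 13.8 CPM in YS-Ex (ratio 2.08, 1.46 to 2.89). A UMI of it was found in 22% against 10.8% of cells in Em-Ex and in 18.9% against 9.42% in YS-Ex, but after thinning to 2000 UMIs the shares were 3.33% against 2.85% and 3.33% against 1.97%, too few to set apart. Among cells of 8000 to 16000 UMIs the log2 ratio of *S100a4* was 0.95 in Em-Ex but 0.18 in YS-Ex, so that the call for YS-Ex did not hold at like depth. Cells nearly without *Cpa3* had 41.6 CPM of it in Em-Ex, against 62.0 CPM in YS-Ex.

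The 15 highest also held 3 genes whose products bind actin or its partners. *Scin* (scinderin), which severs actin filaments at secretion, stood at 148 against 90.5 CPM in Em-Ex (ratio 1.64, 1.45 to 1.84) and at 194 against 85.6 CPM in YS-Ex (ratio 2.27, 1.99 to 2.58). *Avil* (advillin), of the same family, stood at 39.5 against 24.7 CPM (ratio 1.60) and 32.4 against 15.6 CPM (ratio 2.08). *Pdlim1*, an adaptor on actin stress fibres, stood at 44.3 against 27.7 CPM (ratio 1.60) and 75.5 against 43.4 CPM (ratio 1.74). These 3 were placed side by side after their values were seen and were not on a list. *Scin* UMIs were found in 48.0% against 39.4% of cells in Em-Ex and in 51.1% against 32.8% in YS-Ex. Among cells of 8000 to 16000 UMIs the log2 ratios of *Scin* were 0.80 and 1.57 and those of *Avil* 1.09 and 1.30, but those of *Pdlim1* were 0.094 and 0.99, below the fold in Em-Ex. Thinned to 2000 UMIs per cell, *Avil* of Em-Ex turned to -0.26, and *Scin* of Em-Ex (0.58) and *Pdlim1* of Em-Ex (0.31) and YS-Ex (0.58) lay just or well below the fold.

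Of the other 11 named higher genes, 10 are known from DNA replication or cell division, a grouping made after their values were seen. *Prim1*, the catalytic subunit of DNA primase, stood at 40.4 against 21.3 CPM in Em-Ex (ratio 1.90, 1.5 to 2.37) and 30.2 against 17.8 CPM in YS-Ex (ratio 1.70, 1.21 to 2.33). *Mcm6* and *Mcm7* of the replicative helicase had ratios of 1.55 and 1.62 in Em-Ex and 1.72 and 1.59 in YS-Ex. The licensing factor *Cdt1* had ratios of 1.60 and 1.87, the histone chaperone *Chaf1a* 1.61 and 1.60, and the cell cycle genes *Cdca7* and *Tcf19* 1.78 and 1.67 in Em-Ex and 1.92 and 1.73 in YS-Ex. *Esco2*, which acetylates cohesin, had ratios of 2.43 and 1.58, the centromere gene *Incenp* 1.70 and 1.61 and *Cenph* of the kinetochore 1.71 and 1.57. *Ppat*, the first committed enzyme of purine synthesis, had 1.57 and 1.62. At 8000 to 16000 UMIs the log2 ratios were below the fold for *Cdca7* (0.44) and *Cdt1* (0.46) in Em-Ex and for *Mcm6* (0.27) and *Mcm7* (0.27) in YS-Ex. *Chaf1a*, *Cenph*, *Esco2* and *Ppat* in both libraries, and *Cdca7*, *Tcf19* and *Cdt1* in YS-Ex, were under 10 CPM there. Thinned to 2000 UMIs per cell, *Prim1* of YS-Ex turned to -0.13, *Cenph* of Em-Ex was at 0.048 and *Mcm7* of YS-Ex at 0.33. With the top 3% of cells in place of 6%, *Prim1* (-0.40) and *Esco2* (-0.37) of YS-Ex turned in direction. *Esco2* of YS-Ex was at 20.2 CPM in cells between the threshold and 30 *Gzmb* UMIs per 10000, against 19.5 CPM in cells without *Gzmb*.

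The lists of cycling genes held called genes in Em-Ex and, for S phase, in YS-Ex. Of 23 measured S phase genes, 12 were at least 1.5-fold higher in the Em-Ex *Gzmb*-rich cells, where 2.69% of all measured genes were, with a median log2 ratio of 0.59 against 0.07 for all genes. In YS-Ex, 5 of 22 were higher, where 3.04% of all genes were, with a median of 0.26 against 0.05. Of 21 S phase genes measured in both libraries, 3 were higher in both (*Hells*, *Mcm6* and *Mcm7*), where 0.453% of all genes were. At like depth, *Mcm6* and *Mcm7* of YS-Ex lay below the fold, as given above. No gene list was compared at like depth, and the *Gzmb*-rich cells were the deeper ones, so the part of depth in the list values was not tested. Of 22 measured G2/M genes, 5 were higher in Em-Ex with a median of 0.42, and 0 were higher or lower in YS-Ex with a median of 0.14. *Mki67*, the proliferation marker, was at 80.7 against 42.2 CPM in Em-Ex (ratio 1.91, 1.62 to 2.24) and at 97.1 against 86.8 CPM in YS-Ex (ratio 1.12, 0.93 to 1.33). Per cell, the summed S phase genes had a median of 6.68 UMIs per 10000 in the *Gzmb*-rich cells against 3.94 in the other cells of Em-Ex, and of 4.75 against 3.60 in YS-Ex.

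The higher genes outside the cell cycle were also read in cells with few cell cycle UMIs. Among cells below the median share of S phase and G2/M UMIs in their library, a restriction added after seeing the data, 44 *Gzmb*-rich cells of Em-Ex and 34 of YS-Ex were left. There the log2 ratios were 0.58 and 1.48 for *Scin*, 0.87 and 1.15 for *Avil*, 0.87 and 1.64 for *Pdlim1* and 0.90 and 0.65 for *S100a4*, in Em-Ex and YS-Ex. The value of *Scin* in Em-Ex lay just below the fold. Replication genes were not compared there, since this restriction used their lists.

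The growth and protein folding lists had medians above 0, and few of their genes passed the fold. All 15 measured genes of the MYC and nucleolar growth list had a log2 ratio above 0 in each library, where 61.5% and 57.7% of all measured genes did, with medians of 0.27 in Em-Ex and 0.41 in YS-Ex. In each library 1 was at least 1.5-fold higher, *Nolc1* at 67.0 against 43.7 CPM in Em-Ex and *Nop56* at 109 against 68.1 CPM in YS-Ex, where 2.69% and 3.04% of all measured genes were. Nucleolin (*Ncl*) stood at 517 against 428 CPM (ratio 1.21, 1.13 to 1.28) and 735 against 587 CPM (ratio 1.25, 1.17 to 1.33). Of 11 ER stress genes 0 were called in either library, with medians of 0.34 and 0.29 and 8 and 9 of the 11 above 0, and the chaperone *Hspa5* stood at 486 against 396 CPM and 603 against 487 CPM. The iron list had medians of 0.21 and 0.10 with 0 of 7 and 0 of 8 called.

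Of the 10 named genes lowest in both libraries, the best covered was *Ecm1*, an extracellular matrix protein, at 60.8 against 107 CPM in Em-Ex (ratio 0.57, 0.48 to 0.68) and 48.2 against 86.8 CPM in YS-Ex (ratio 0.56, 0.43 to 0.71), with UMIs in 48.7% against 62.4% and in 43.3% against 55.5% of cells. *Apoe*, a lipid transport protein abundant in macrophages, stood at 30.6 against 67.5 CPM in Em-Ex (ratio 0.45, 0.35 to 0.58) and at 5.76 against 18.3 CPM in YS-Ex (ratio 0.31, 0.13 to 0.63), yet its UMIs were found in like shares of cells, 20.0% against 21.5% and 8.89% against 11.3%. In Em-Ex macrophage genes were lower too. Of 12 on the macrophage list, 7 were measured in Em-Ex and 4 of these were at least 1.5-fold lower (2.48% of all genes were), while in YS-Ex 1 of 3 was (3.53% of all genes were). The summed list was at 714 against 923 CPM in Em-Ex and at 481 against 576 CPM in YS-Ex. Their part in the *Apoe* result was not tested.

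*Fcer1a*, the IgE-binding chain of the high-affinity receptor, stood at 7.54 against 16.1 CPM in Em-Ex (ratio 0.47, 0.27 to 0.76) and at 3.60 against 20.0 CPM in YS-Ex (ratio 0.18, 0.06 to 0.42). This rested on 17 UMIs in 6 *Gzmb*-rich cells of Em-Ex, 10 of them in 1 cell, and on 5 UMIs in 3 cells of YS-Ex. The shares of cells with a UMI, 4% against 5.5% and 3.33% against 5.86%, had overlapping intervals. With the top 10% of cells in place of 6%, the log2 ratio of *Fcer1a* turned to 0.12 in Em-Ex and 0.42 in YS-Ex, and among Em-Ex cells with few cell cycle UMIs to 0.80, so that its direction was not stable. The partner chains were not low, since *Fcer1g* was at 2924 against 2946 CPM and 2612 against 2709 CPM, and *Ms4a2* was at 65.2 against 51.9 CPM and 92.1 against 66.6 CPM. The keratin *Krt4* (ratios 0.45 and 0.42), the dynamin *Dnm3* (0.33 and 0.48), *Rnase4* (0.43 and 0.48), the RNA *Snhg12* (0.51 and 0.31), *Trim12c* (0.48 and 0.53) and the repressor *Foxn3* (0.54 and 0.32) were lower on 7 to 34 UMIs each in the *Gzmb*-rich cells. *Igfbp5* stood at 14.2 against 26.1 CPM in Em-Ex, where 1 cell held 43.8% of its UMIs in the *Gzmb*-rich cells, and at 2.16 against 27.3 CPM in YS-Ex (3 UMIs, ratio 0.08, 0.02 to 0.23). At 8000 to 16000 UMIs *Igfbp5* of Em-Ex turned to a log2 ratio of 0.082, and *Fcer1a* (-0.44) and *Rnase4* (-0.22) of Em-Ex and *Snhg12* (-0.36) of YS-Ex did not pass the fold. Thinned to 2000 UMIs, *Foxn3* of Em-Ex turned to 0.44 and was at -0.28 in YS-Ex, *Dnm3* was at -0.48 and -0.34, and *Igfbp5* of Em-Ex was at -0.48.

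The cytokines were split. In Em-Ex, 3 of 15 measured genes of the list, *Il6* included, were higher and 4 lower, where 2.69% and 2.48% of all genes were, and in YS-Ex 3 of 11 were higher and 1 lower, where 3.04% and 3.53% were. On the cytokine and chemokine list, *Il6* was the only gene at least 1.5-fold higher in both libraries, and the rule had chosen it. The list's medians, *Il6* included, were -0.14 in Em-Ex and 0.01 in YS-Ex. *Csf2*, which encodes GM-CSF, stood at 32.4 against 11.0 CPM in Em-Ex (ratio 2.96, 2.25 to 3.84) and at 3.60 against 6.46 CPM in YS-Ex, below the level measured. *Tnf* stood at 97.1 against 75.8 CPM (ratio 1.28, 1.11 to 1.47) and 84.9 against 47.5 CPM (ratio 1.79, 1.47 to 2.16). *Il13* stood at 44.8 against 45.4 CPM and 52.5 against 66.3 CPM. The immediate-early genes were on the low side, with medians of -0.12 and -0.10 and 0 higher in either library and 1 of 23 lower in Em-Ex, and *Fos* stood at 848 against 1180 CPM and 1492 against 1758 CPM. The basophil list had medians of -0.08 and -0.44, with 1 of 4 measured genes higher in Em-Ex and 1 of 4 lower in YS-Ex, and summed to 666 against 689 CPM and 360 against 478 CPM. The higher gene was *Mcpt8*, a basophil protease, at 203 against 123 CPM in Em-Ex (ratio 1.65, 1.49 to 1.82) and at 38.9 against 36.9 CPM in YS-Ex (ratio 1.05, 0.78 to 1.39).

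The remaining lists are given by their medians and counts. The IL-6 receptor and JAK-STAT list had medians of 0.02 and 0.06, with 0 of 10 and 1 of 11 measured genes higher, and *Il6st*, the shared signal chain of the IL-6 family, had 1 UMI and 4 UMIs in the *Gzmb*-rich cells. The receptors for the culture cytokines had medians of -0.15 and 0.02 with 0 of 8 called in each library. Granule and secretory genes had medians of -0.10 and -0.01 with 0 of 16 called, and the list of IgE receptor signaling had medians of -0.10 and -0.07, with 0 higher and 2 lower of 14 measured genes in Em-Ex and 1 higher and 1 lower of 13 in YS-Ex. The amino acid stress, hypoxia and G1 lists had medians between -0.18 and 0.11. Of 11 amino acid stress genes, 0 were called in Em-Ex, and 2 were higher and 1 lower in YS-Ex. Of 12 hypoxia genes 1 was lower, and of 9 G1 genes 1 was higher, in each library. For comparison, 2.69% of all genes were higher and 2.48% lower in Em-Ex, and 3.04% and 3.53% in YS-Ex. The B cell list summed to at most 0.89 CPM in the *Gzmb*-rich cells, and the eosinophil, neutrophil progenitor and dendritic lists to at most 7.98 CPM, while the erythroid list stood at 156 against 177 CPM and 304 against 300 CPM. The megakaryocyte, endothelial and stromal lists summed to at most 55.9 CPM in the *Gzmb*-rich cells. These lists held few measured genes. The megakaryocyte list had medians of -0.29 and 0.28, with 0 of 2 measured genes called in Em-Ex and 1 of 3 lower in YS-Ex. The 1 measured eosinophil gene was lower in Em-Ex (log2 ratio -1.52), and the 1 measured stromal gene was higher in YS-Ex (0.82).

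Several differences were graded over *Gzmb* and did not begin at the threshold. From cells with 0 *Gzmb* UMIs through those above 0 to 3, from 3 to the threshold, and from the threshold to 30 per 10000, *S100a4* stood at 13.4, 19.5, 28.9 and 35.6 CPM in Em-Ex. In YS-Ex it stood at 11.1, 21.3, 30.7 and 38.3 CPM, so that each of these steps was upward in both libraries. In the last class, with 30 or more, *S100a4* was at 34.5 CPM (18.4 to 59.0) in Em-Ex, and in YS-Ex at 11.3 CPM (0.285 to 62.7), on 1 UMI. *Scin* stood at 74.0, 115, 176 and 202 CPM over these classes of YS-Ex and at 439 (312 to 600) in the 6 cells with 30 or more, and at 89.6, 88.5, 120, 123 and 215 (171 to 267) CPM over the 5 classes of Em-Ex.

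*Fcer1a* was lower from the first step on, from 19.9 CPM in cells without *Gzmb* to 4.77 CPM in cells with up to 3 per 10000 in Em-Ex, and from 23.3 to 4.20 CPM in YS-Ex, and the later classes held at most 9.54 CPM. *Ecm1* stood at 117, 82.6, 65.8, 71.9 and 26.5 CPM in Em-Ex. The summed S phase list was higher at every step of Em-Ex, from 888 through 1210, 1399 and 1521 to 1666 CPM, but in YS-Ex it stood at 811, 895, 1184, 890 and 1734 CPM, without a steady order. The summed G2/M list had no steady order in Em-Ex, at 1317.5, 1759, 1604.5, 2110 and 1464.5 CPM. In the classes of YS-Ex up to 30 *Gzmb* UMIs per 10000 it stood at 1140, 1313, 1553 and 1232.5 CPM. The classes also differ in depth, since the cells without *Gzmb* had median totals of 10684 and 11326 UMIs and those between the threshold and 30 had 14731 and 15836, and these values used the same cells as the choice of the *Gzmb*-rich cells above the threshold.

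**Figure D3:**
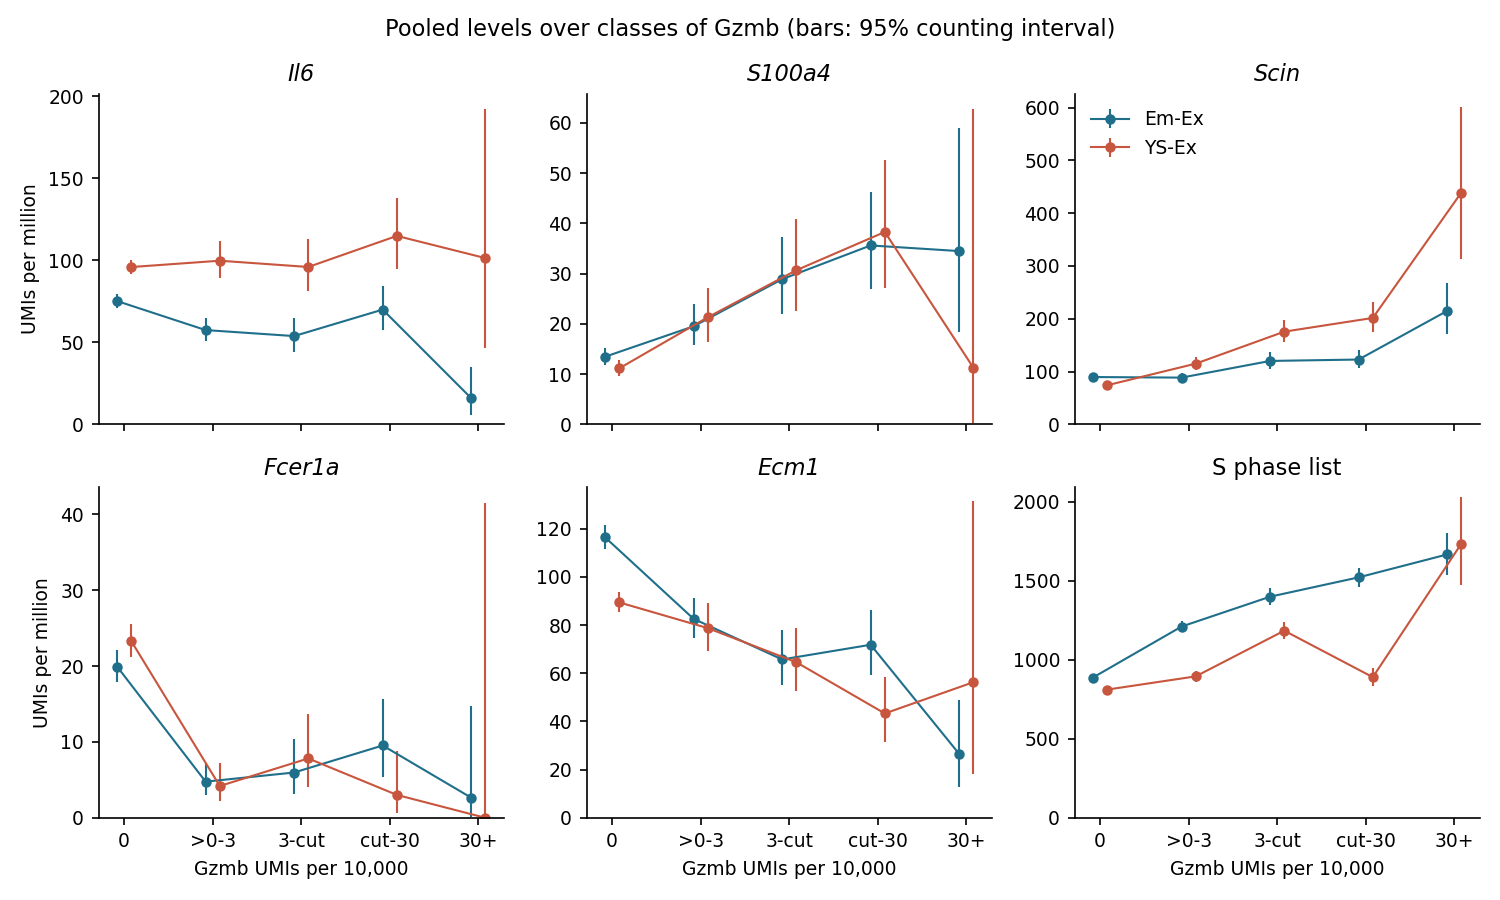
Pooled levels in UMIs per 1000000 (y axis from 0) of Il6, S100a4, Scin, Fcer1a, Ecm1 and the summed S phase list over 5 classes of Gzmb UMIs per 10000 (x axis) in Em-Ex and YS-Ex, with 95% counting intervals. The intervals of Il6 in the classes past the threshold (cut) overlap that of cells without Gzmb or lie below it, S100a4 goes from 13.4 to 35.6 in Em-Ex up to the fourth class, and the last class holds 22 and 6 cells.

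The top 6% by *Il6* alone were compared with the other cells in the same way. Of 5963 genes, 23 (0.386%) were at least 1.5-fold higher in both libraries and 37 (0.62%) lower. The leading genes of this ranking and of the *Gzmb* ranking, the 10 highest and 10 lowest of each, were picked after their values were seen, and the 2 rankings share most of their comparison cells. Cytokine and immediate-early genes were among the 10 highest of the *Il6* ranking, beside others. *Osm*, a cytokine of the IL-6 family, was at 63.4 CPM against 25.3 in the other cells of Em-Ex (ratio 2.51, 1.96 to 3.17) and at 106 against 51.7 CPM in YS-Ex (ratio 2.05, 1.75 to 2.39). *Lif*, a further member of that family, was at 47.6 against 16.7 CPM (ratio 2.85, 2.14 to 3.75) and 104 against 49.4 CPM (ratio 2.10, 1.79 to 2.45).

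*Nr4a1*, an immediate-early nuclear receptor, was at 189.5 against 69.1 CPM in Em-Ex (ratio 2.74, 2.39 to 3.14) and at 128 against 66.4 CPM in YS-Ex (ratio 1.93, 1.67 to 2.21) under the *Il6* ranking. The stress gene *Gadd45b* had ratios of 2.18 and 2.76, the antiproliferative *Btg2* 2.44 and 1.87, and the chemokine receptor *Ccr2* 2.06 and 1.80. *Nkg7*, given as a marker of the combined cells, had ratios of 2.14 and 1.91 under this ranking, and 1.0 and 1.77 under the *Gzmb* ranking. Hemoglobin *Hba-a1* was also among the 10 highest (2.34 and 1.79), and *Igf2* (0.35 and 0.13), *Speer4e* (0.32 and 0.05) and *Mcpt4* (0.48 and 0.43) were among the 10 lowest.

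The pooled levels of *Fcer1a* and *Osm* lay on opposite sides under the 2 rankings in both libraries, that of *Fcer1a* on UMIs in few cells. *Fcer1a* was at 45.2 against 13.8 CPM in Em-Ex (ratio 3.27, 2.42 to 4.33) and at 34.2 against 17.9 CPM in YS-Ex (ratio 1.91, 1.44 to 2.50) in the cells at the top for *Il6*. At the top for *Gzmb* it was at 7.25 against 16.1 CPM (ratio 0.45, 0.26 to 0.73) and at 2.97 against 20.0 CPM (ratio 0.15, 0.04 to 0.38). Over classes of *Il6*, from 0 through above 0 to 3, 3 to the threshold and the threshold to 30 per 10000, *Fcer1a* had no steady order, at 7.95, 27.7, 38.9 and 6.12 CPM in Em-Ex (1 UMI in the last class) and at 20.8, 14.4, 26.9 and 14.4 CPM in YS-Ex (2 UMIs in the last). The 64 UMIs of the third YS-Ex class lay in 4.14% of its 169 cells, while 6.46% of the YS-Ex cells without *Il6* had a UMI. *Osm* had ratios of 0.46 (0.31 to 0.67) and 0.49 (0.35 to 0.68) under the *Gzmb* ranking. *Prnp*, the prion protein, was the lowest of the *Gzmb* ranking at 0.41 and 0.23, with 2.56 and 1.19 under the *Il6* ranking. *Scin* was higher under both, with 1.48 and 2.35 by *Gzmb* and 2.12 and 1.67 by *Il6*.

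**Figure D4:**
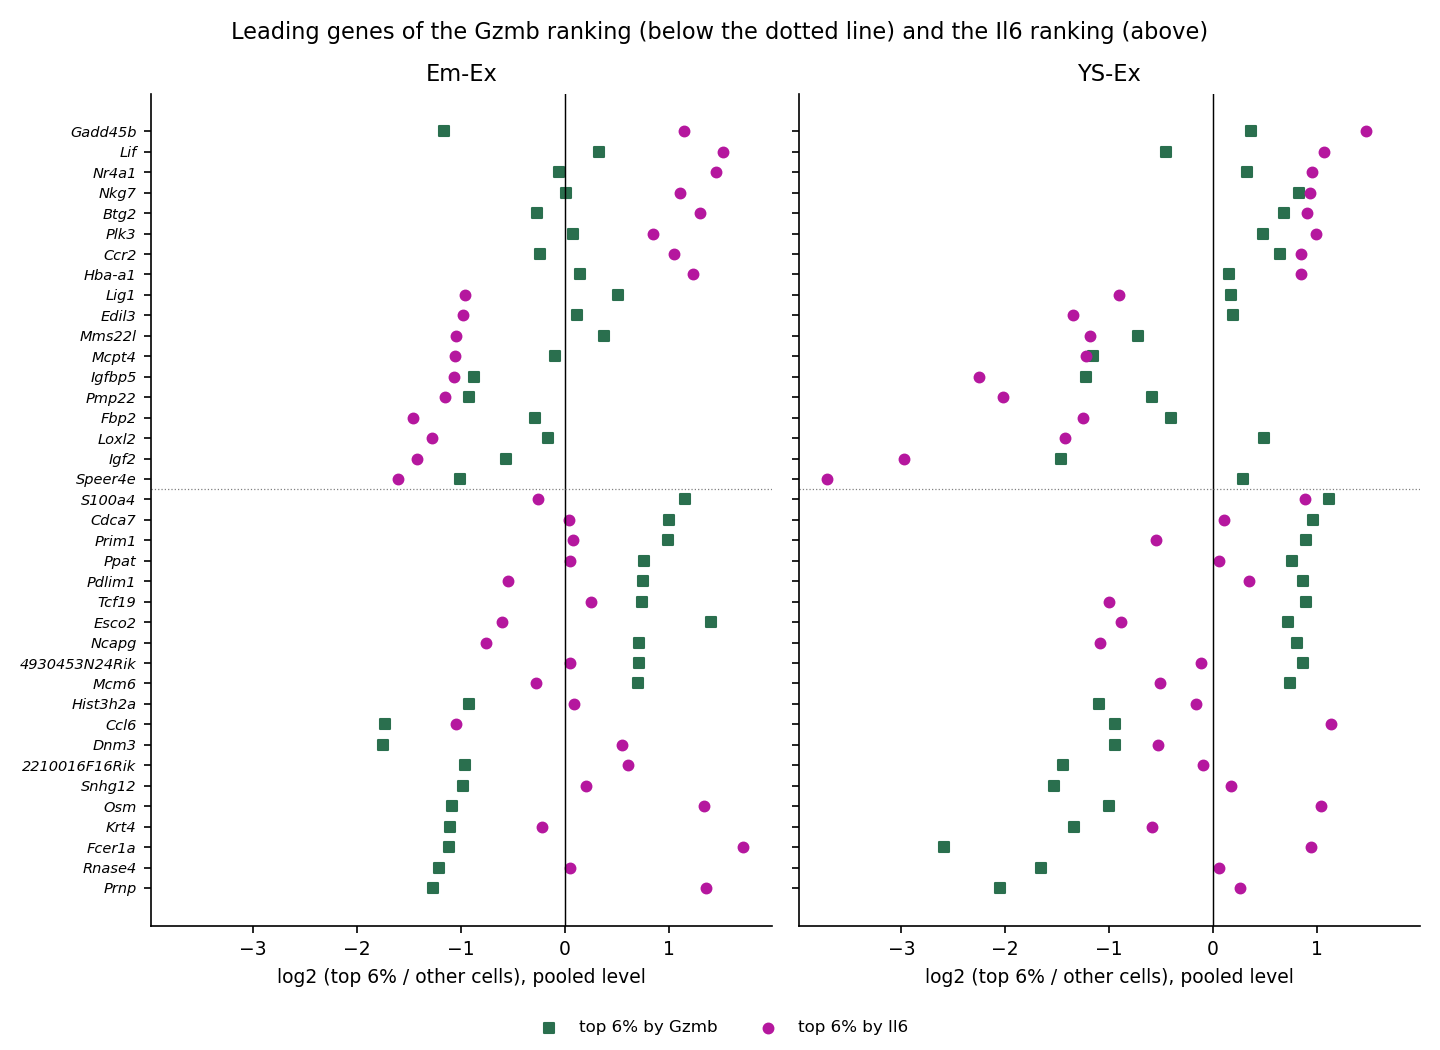
The log2 ratio (x axis) of the top 6% of cells by Gzmb alone (squares) and by Il6 alone (circles) to the other cells, in Em-Ex (left) and YS-Ex (right), for the leading genes of each ranking (genes leading in both are drawn with the Gzmb ranking). Osm and Fcer1a lie left of 0 for Gzmb and right of 0 for Il6 in both panels, and S100a4 in YS-Ex lies right of 0 for both.

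The gene lists were compared in the same way. Under the *Il6* ranking the cytokine list without *Il6* had medians of 0.35 (Em-Ex) and 0.68 (YS-Ex), with 3 of 14 and 6 of 10 measured genes higher and 2 of 9 in both, where 2.24%, 1.77% and, in both, 0.386% of all measured genes were. Under the *Gzmb* ranking the same list, with *Il6*, had medians of -0.38 and -0.16, with 7 of 15 and 1 of 11 lower, where 2.61% and 3.95% of all genes were. The immediate-early list had medians of 0.47 and 0.24 by *Il6*, with 5 of 23 and 3 of 22 higher and 1 of 21 in both, and of -0.28 and -0.20 by *Gzmb*, with 3 of 23 and 2 of 22 lower. The medians of all measured genes were -0.03 and 0.01 by *Il6* and 0.09 and 0.05 by *Gzmb*.

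Cycling genes were mostly lower at the top for *Il6* in YS-Ex, and few of them passed the fold in Em-Ex. In YS-Ex, 20 of 22 G2/M genes and 11 of 22 S phase genes were lower at the top for *Il6*, where 3.65% of all genes were, with medians of -1.16 and -0.57. In Em-Ex, 4 of 22 and 0 of 23 were lower, where 4.11% of all genes were, with medians of -0.21 and -0.09 against -0.03 for all genes. Under the *Gzmb* ranking the S phase medians were 0.66 and 0.25, with 14 of 23 and 5 of 22 higher, where 3.07% and 3.11% of all genes were. These values belong to the 240 cells at the top for *Il6*, of which the sum took 44, and not to the few cells that passed the threshold by *Il6*. Over the 4 classes of *Il6*, the summed S phase list was at 985, 1136, 1087 and 758 CPM in Em-Ex and at 761, 1044, 652 and 996 CPM in YS-Ex. The summed G2/M list was at 1371, 1667, 1592 and 1064 CPM in Em-Ex and at 1058, 1492, 856 and 1097 CPM in YS-Ex. The cells above 0 to 3 *Il6* UMIs per 10000, 514 and 576 of them, thus had more cycling UMIs than those without *Il6*, and the last class held 16 and 9 cells.

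**Figure D5:**
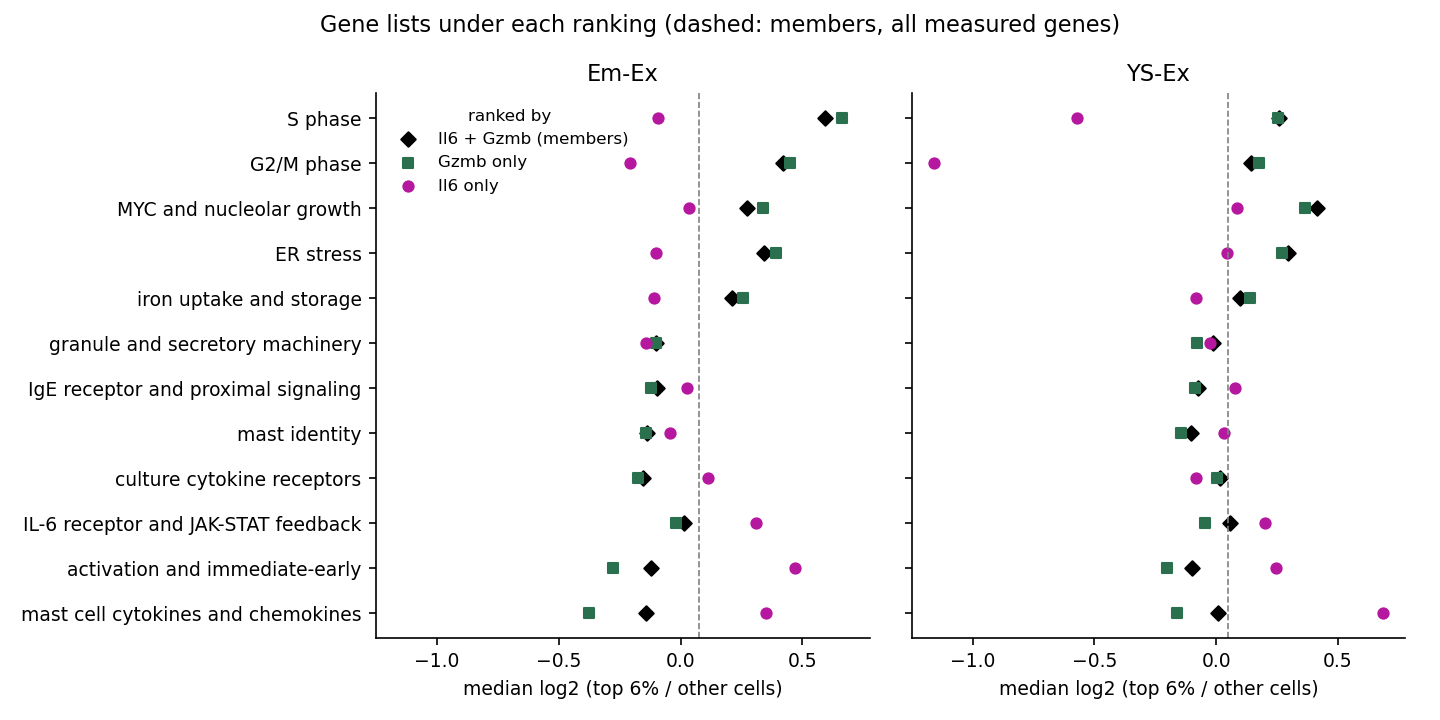
The median log2 ratio (x axis) of 12 gene lists (rows) in the cells chosen by the sum, by Gzmb only and by Il6 only against the other cells of Em-Ex (left) and YS-Ex (right), with the median of all measured genes as a dashed line. The S phase list has medians of 0.59 and 0.26 for the sum and -0.09 and -0.57 for Il6 only, and the cytokine list 0.35 and 0.68 for Il6 only.

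The *Gzmb*-rich cells lay scattered among the other ranked cells, though somewhat closer to each other than the other cells were to them. With *Il6* and *Gzmb* left out, 12.9% of the 20 nearest neighbors of a *Gzmb*-rich cell of Em-Ex were *Gzmb*-rich cells too, where they made up 7.22% of the cells and 7.50% of the neighbors of the other cells. In YS-Ex the values were 8.44%, 4.70% and 4.62%. With the S phase and G2/M genes left out as well, the share among neighbors was 13.4% for Em-Ex, and 8.22% for YS-Ex. In all, 10.7% of the *Gzmb*-rich cells of Em-Ex and 24.4% of those of YS-Ex had no *Gzmb*-rich neighbor. Cells were not matched for depth here, and the *Gzmb*-rich cells were the deeper ones, so the part of depth in these shares was not tested.

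Between the libraries the *Gzmb*-rich share was 7.22% in Em-Ex against 4.70% in YS-Ex, but each is 1 library, so that tissue and library cannot be told apart. By *Gzmb* alone the top 6% took 7.37% of ranked cells from Em-Ex, against 4.54% from YS-Ex. By *Il6* alone the order turned, with 5.15% and 6.95%. A further 3 genes were called in opposite directions in the 2 libraries (0.0503% of those measured in both). They were *Ccl6*, *Apobr* and *Gadd45b*, with log2 ratios of -1.73 and 1.62, -0.71 and 0.63, and -0.75 and 0.60 in Em-Ex and YS-Ex, and 52 of the 66 *Ccl6* UMIs in the YS-Ex *Gzmb*-rich cells came from 1 cell.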

How the data were processed

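Droplet single-cell libraries of sorted CD31+CD45+c-Kit+CD41- cells, 1 each from Em-Ex and YS-Ex, were analysed. Raw UMI counts, which the authors deposited unnormalized, stood in a single table with 11691 genes as rows and 6541 barcodes as columns. The submitters' processing notes name Cell Ranger 2.0.1, bcl2fastq 2.19.1.403 and mm10. Barcode names gave the library, and 0 columns were left unmapped. In each library every gene above 0 had UMIs in at least 30 barcodes, and 241 genes in Em-Ex and 725 in YS-Ex were at 0 throughout, so that a gene at 0 in a library may have been filtered.

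Cells with 1000 to 5000 genes and at most 5% mitochondrial UMIs (13 genes) were kept. Doublets were not called or removed. Levels were pooled UMIs per 1000000 (CPM) with exact Poisson 95% intervals, shares had exact Clopper-Pearson intervals, and ratios had exact conditional binomial intervals. Log2 ratios used a prior count of 0.5. Genes with at least 10 CPM over the ranked cells of a library were measured, and those past 1.5-fold were called. Cells of 1 library share their source, so no p-values were computed. Shares of cells were repeated after thinning each cell to 2000 UMIs (0 ranked cells had fewer). Neighbors came from 50 principal components of 2000 variable genes.

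The text names the ranking genes and markers, the 15 genes with the largest and the 10 with the smallest ratio in both libraries (by the ratio nearest to 1), and members of gene lists with the largest, smallest or highest values. The leading genes of the *Il6* and *Gzmb* rankings, the genes with opposite directions and some list examples (*Csf2*, *Ctsc*, *Il6st*) were chosen after their values were seen. The members and lists were chosen with earlier results of these data known. On simulated pooled counts with 200 genes changed, the calls recovered 99% of raised and 96% of lowered genes in Em-Ex (6251 genes) and 99% and 92% in YS-Ex (6713 genes), and took 1.07% and 2.78% of unchanged genes. The simulation drew the total of each gene in each group with counting error only. It held no spread between cells, so these rates do not cover calls that rest on a few cells. Promoter windows came from RefSeq (GRCm38.p6, the assembly named mm10). Alternatives were other cuts, rankings, cell filters, depths, scalings and level limits. Python 3.11.15, numpy 2.4.6, scipy 1.17.1, pandas 2.3.3, scikit-learn 1.9.0 and matplotlib 3.10.9 were used.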

Additional observations from a re-analysis of the deposited data

Results flagged for a closer look

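*Ccl6*, *Apobr* and *Gadd45b* lay past 1.5-fold in opposite directions in the 2 libraries, and this difference was not tested. The log2 ratio of *Gzmb*-rich to other cells was -1.73 in Em-Ex and 1.62 in YS-Ex for *Ccl6*, a chemokine, where 1 cell held 78.8% of the 66 UMIs in the YS-Ex *Gzmb*-rich cells. It was -0.71 and 0.63 for *Apobr*, a lipoprotein receptor, and -0.75 and 0.60 for *Gadd45b*, on 14 and 30 UMIs.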

How the results depend on the processing

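With 1 library per tissue no replicate could be left out, and no paired analysis was possible because no test was run and the libraries have no replicates. Of 1027 values of named genes under the alternatives, 845 stayed within the counting interval of the main value and 148 left it. A further 34 turned in direction, which was counted only where the main ratio had passed 1.5-fold. The ranking gene mattered most. By *Il6* alone the shares were 5.15% for Em-Ex, and 6.95% for YS-Ex, while 257 genes were lower in Em-Ex and 119 higher in YS-Ex. There the log2 ratios in Em-Ex were -0.25 for *S100a4*, -0.011 for *Incenp*, -0.58 for *Chaf1a*, -0.55 for *Pdlim1*, -0.18 for *Mcm7*, -0.61 for *Esco2*, -0.28 for *Mcm6*, 0.61 for *Apoe*, 1.72 for *Fcer1a*, 0.55 for *Dnm3*, 0.048 for *Rnase4* and 0.20 for *Snhg12*. In YS-Ex they were -0.55 for *Prim1*, -1.0 for *Tcf19*, -0.61 for *Incenp*, -0.57 for *Chaf1a*, -0.37 for *Cdt1*, -0.87 for *Mcm7*, -1.65 for *Cenph*, -0.89 for *Esco2*, -0.51 for *Mcm6*, 0.94 for *Fcer1a*, 0.055 for *Rnase4*, 0.18 for *Snhg12* and 0.081 for *Trim12c*. Of these cells, 24 of 107 and 20 of 133 were among those chosen by the sum, and 7 and 8 were also in the top 6% by *Gzmb* alone.

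With the top 3% the shares were 3.95% and 1.98%, with 331 genes higher and 260 lower in Em-Ex, 419 and 508 in YS-Ex, and log2 ratios in YS-Ex of -0.40 for *Prim1* and -0.37 for *Esco2*. With the top 10% they were 11.17% and 8.72%, with 80 and 81, 87 and 112, and 8 higher and 12 lower in both, and *Fcer1a* at 0.12 and 0.42. With each library ranked alone they were 6.02% and 6.01%, with 126 higher in YS-Ex and 16 in both. The mean over cells gave 312 higher in YS-Ex and 50 in both. Median-ratio scaling, which moves all log2 ratios by the medians given above, turned the Em-Ex split of 168 higher and 155 lower into 98 and 215, and left 16 higher in both. Its YS-Ex split was 140 and 297 in place of 204 and 237.

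Level and depth set the counts too. Without a level limit, 1258 and 1039 genes passed in Em-Ex, 1113 and 1086 in YS-Ex and 249 and 245 in both, and at 50 CPM 17 and 17, 25 and 25, and 4 and 10. Thinned cells gave 932 and 688, 1273 and 937, and 217 and 129, with *Avil* at -0.26 and *Foxn3* at 0.44 in Em-Ex and *Prim1* at -0.13 in YS-Ex. Cells of 8000 to 16000 UMIs gave 280 and 302, 630 and 610, and 53 higher in both, with *Igfbp5* at 0.082 in Em-Ex. The cells below the median share of cell cycle UMIs, added after seeing the data, gave 395 and 552, 540 and 655, and 63 and 91, with *Fcer1a* at 0.80 in Em-Ex. Fewer UMIs were left in these 3 settings, and fewer cells in the last 2. The cause of the other changes was not tested. Below about 10 CPM single genes cannot be set apart in 90 cells.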
